A study of Mus musculus with 10 samples.

Results

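The miR-34 family and its relative miR-449a were followed in small RNA sequencing libraries of mouse splenic B-cells. The members were taken by name from the microRNA class of the count table, where they are listed as mmu-miR-34a-5p, mmu-miR-34b-5p, mmu-miR-34b-3p, mmu-miR-34c-5p, mmu-miR-34c-3p and mmu-miR-449a-5p (mmu, for mouse, is left out below). They are 6 of 2015 microRNA features, of which 1302 are mature microRNAs and 713 are hairpin transcripts, in a table of 6968 features. The rule selects features by name.

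CD43- splenic B-cells, the resting fraction left after cells bearing the surface protein CD43 are removed, came from wt mice, from mice lacking the 3′ regulatory region (3′RR) of the immunoglobulin heavy chain locus, and from mice lacking Eµ, the enhancer on the other side of that locus's constant region genes. Per the study's methods all mice had a 129 background, were young adults of either sex, and the Eµ deletion included the matrix attachment regions flanking the enhancer. Cells were kept for 2 days in medium alone (NS) or with 5 µg/ml lipopolysaccharide (LPS), a bacterial product that drives B-cells to divide and to switch antibody class. Per the labels, the NS cells were cultured for the same time, and each library came from cells of 2 pooled mice. The wt and 3′RR-deficient cells had 2 libraries per condition and the Eµ-deficient cells 1, so 10 libraries were compared. The p-values below therefore measure the spread between pools.

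A microRNA is a short RNA that guides Argonaute proteins to messenger RNAs, and bases 2 to 8 from its 5′ end, the seed, decide most of the pairing. The miR-34 genes are direct targets of the tumour suppressor p53, and miR-34a acts on messengers of the cell cycle and of cell survival. In B-cells miR-34a is known as a regulator of the transcription factor Foxp1 during early development. The miR-34b/c and miR-449 genes are best known from multiciliated epithelia.

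The sequences below show which members can be read as the same regulator. The 5p arms printed here share the seed GGCAGUG, in capitals. All sequences are RefSeq's, 5′ to 3′, with positions on GRCm38.p6.
miR-34a-5p: uGGCAGUGucuuagcugguugu
miR-34b-5p: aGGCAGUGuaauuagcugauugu
miR-449a-5p: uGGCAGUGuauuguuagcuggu
The 3p arms of miR-34b and miR-34c carry another seed, AUCACUA.
miR-34b-3p: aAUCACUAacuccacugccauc
miR-34c-3p: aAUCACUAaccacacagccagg
Among 1679 mature mouse microRNAs in the RefSeq table, 4 hold GGCAGUG at bases 2 to 8. They are the 3 above and miR-449c-5p. The sequence of miR-34c-5p was not analysed here, so nothing is said of its seed. Aligned from the 5′ end without gaps, the 3p arms of miR-34b and miR-34c differed at 5 of 22 positions.

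The members lie at 3 places in the genome. miR-34a-5p is at chr4:150068473-150068494 on the plus strand, in the Mir34a hairpin gene and in no other annotated gene. Mir34b and Mir34c are neighbours, 451 bases apart, on the minus strand of chromosome 9. There miR-34b-5p is at chr9:51103610-51103632, miR-34b-3p at chr9:51103574-51103595, miR-34c-5p at chr9:51103076-51103098 and miR-34c-3p at chr9:51103044-51103065, all inside an intron of Btg4, which is read from the other strand. miR-449a-5p is at chr13:113037549-113037570 on the plus strand, in an intron of Cdc20b, which is read in the same direction.

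Depth set what could be seen of each member. The libraries held 3482540 to 18144016 counts in all and 2225722 to 12377000 microRNA counts. MicroRNA features took 63.9% to 82.1% of the counts in the wt and 3′RR-deficient libraries. In the Eµ-deficient libraries they took 60.2% in NS and 51.4% in LPS. A count of 3 in a library was taken as the floor of detection, which corresponds to 0.272 to 1.10 CPM, the usual counts-per-million unit, taken here over the microRNA counts after scaling by the TMM method of edgeR.

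One member was plainly expressed. miR-34a-5p had 9502 of the 9613 counts of all 6 members, and it was above the floor in 10 of 10 libraries. The other 5 members had 111 counts together, and none of them was above the floor in every library. miR-34b-5p and miR-34c-3p were at or below the floor in every library. miR-34b-3p was above it in 1 library, miR-34c-5p in 3 and miR-449a-5p in 4.

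**Figure D1:**
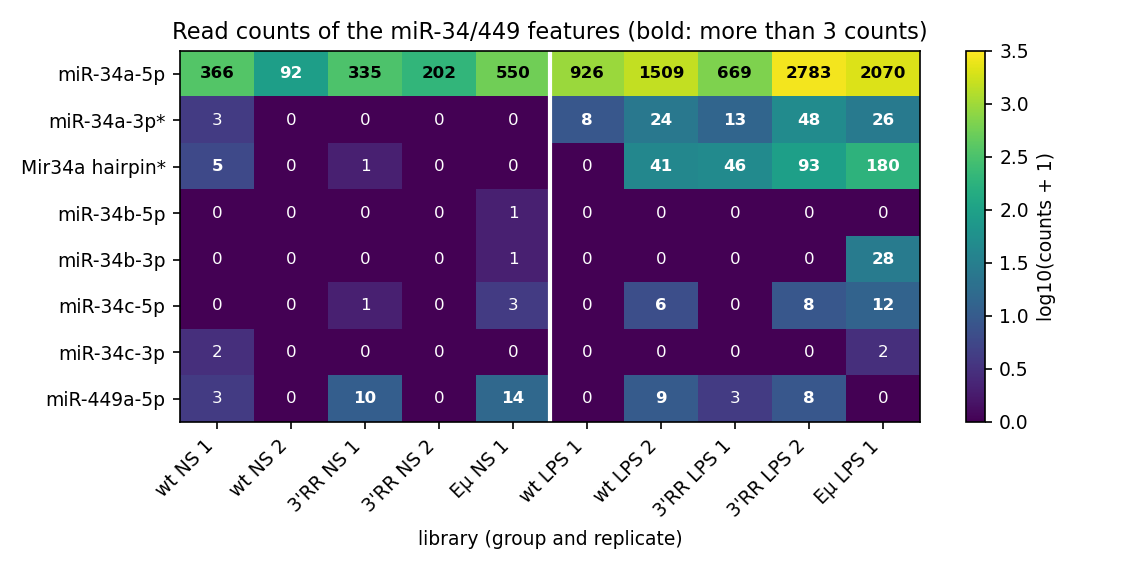
Raw read counts of the 6 members, and of the miR-34a-3p arm and the Mir34a hairpin transcript (marked with an asterisk, not members), in each of the 10 libraries. NS libraries are left and LPS libraries right of the white line, colour gives log10(counts + 1), and bold counts are above the floor of 3. miR-34a-5p fills its row with 92 to 2783 counts, and no other member exceeds 28.

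mmu-miR-34a-5p was measured at 39.0 and 33.6 CPM in the wt NS libraries. In the 3′RR-deficient NS libraries it was at 42.9 and 66.4 CPM, and in the Eµ-deficient NS library at 63.7 CPM. The 5 NS levels thus stayed within 33.6 to 66.4 CPM, from 92 to 550 counts a library. With LPS the wt libraries reached 186 and 212 CPM. The 3′RR-deficient LPS libraries gave 151 and 317 CPM, and the Eµ-deficient LPS library gave 188 CPM. Every LPS library was higher than every NS library, and the lowest LPS level was 2.28-fold the highest NS level. Of the 988 microRNA features tested, 10.3% had all LPS libraries above all NS libraries. The separation held in both other scalings tried. As CPM of microRNA counts without TMM the ranges were 29.6 to 79.7 in NS and 155 to 265 in LPS. As CPM of all features they were 24.3 to 53.8 in NS and 110.5 to 201 in LPS.

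**Figure D2:**
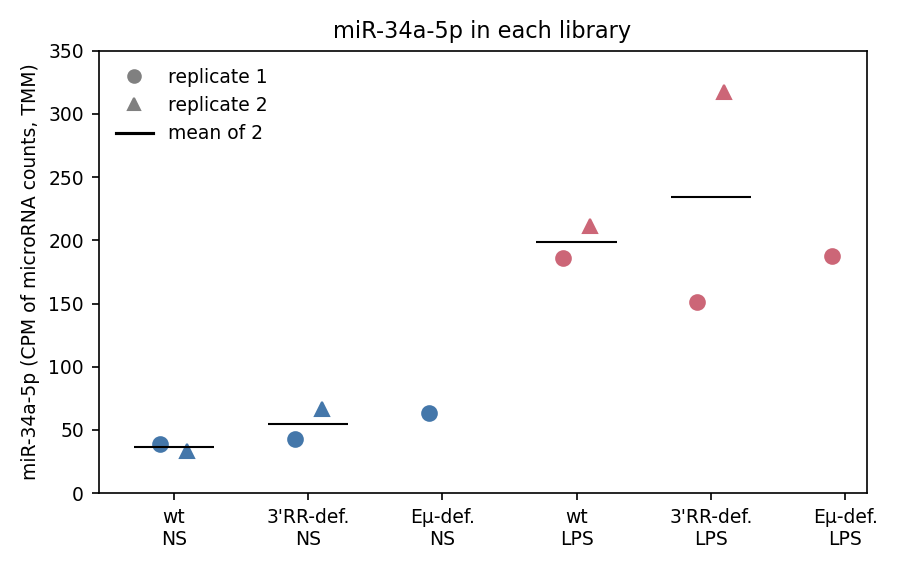
Level of miR-34a-5p in CPM of microRNA counts after TMM scaling, by genotype (wt, 3′RR-deficient, Eµ-deficient) and condition (NS in blue, LPS in red). Circles and triangles are replicates 1 and 2, and the bar is the mean of a group of 2. The NS libraries lie between 33.6 and 66.4 CPM and the LPS libraries between 151 and 317 CPM.

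The LPS response of miR-34a-5p passed the test over the 3 genotypes. With genotype as a second term, its level was 4.89-fold higher with LPS (95% interval 2.69 to 8.88; log2 fold change 2.29, SE 0.40; adjusted p = 0.00153 by edgeR's quasi-likelihood test with Benjamini-Hochberg adjustment). In the same test 18.8% of the 988 features were called in either direction and 11.8% were called higher, and the median feature changed by 0.10 on the log2 scale. miR-34a-5p stood 25th by p and 165th by the size of the rise. Of the 6 members, 4 passed the filter on low counts, 3 of them only through an Eµ-deficient library. miR-34a-5p, the 1 that passed without these libraries, was called. In bulk samples, a change in the share of cells that make a microRNA and a change in its amount per cell cannot be told apart.

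miR-34a-5p was also among the more abundant microRNAs after stimulation. In a ranking of the 1302 mature microRNAs by counts it held places 164 to 199 in the NS libraries. In the LPS libraries it held places 108 to 133. The 2 sets of places did not overlap.

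**Figure D3:**
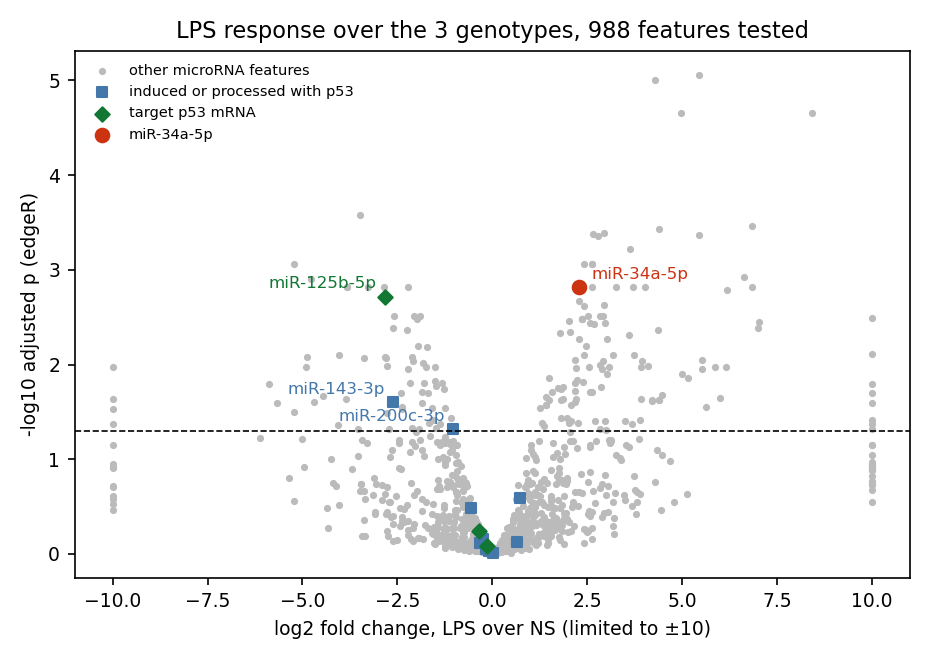
LPS response of the microRNA features over the 3 genotypes, as log2 fold change (horizontal, values beyond ±10 drawn at 10) against −log10 of the edgeR adjusted p (vertical). Grey points are other features, squares and diamonds the p53-linked lists described in the text, the dashed line an adjusted p of 0.05. The 3 members with few counts, miR-145a-5p and miR-504-5p are not drawn. miR-34a-5p lies above the line at 2.29.

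Within single genotypes the LPS levels were above the NS levels, but the test did not pass in wt or 3′RR-deficient cells. With 2 libraries or 1 per condition such an order can arise by sampling alone. The share of all features with such an order is not given. Between same-numbered wt libraries the LPS level was 4.77-fold and 6.29-fold the NS level, and the group means were 36.3 ± 3.79 and 199 ± 18.2 CPM (SD, n = 2 each). In 3′RR-deficient cells the ratios were 3.52 and 4.78, with means of 54.6 ± 16.6 and 234 ± 117 CPM (SD, n = 2 each). The Eµ-deficient pair gave a ratio of 2.94, with no replicate. As CPM of microRNA counts without TMM the same ratios were 7.55 and 4.37 in wt, 4.47 and 3.32 in 3′RR-deficient and 3.28 in Eµ-deficient cells, so all 5 stayed above 1 while their order changed. In the fit of the 8 wt and 3′RR-deficient libraries the log2 fold change was 2.60 in wt cells (95% interval 1.12 to 4.07; edgeR adjusted p = 0.0833) and 2.22 in 3′RR-deficient cells (0.77 to 3.68; edgeR adjusted p = 0.126). Without the second 3′RR-deficient LPS library the latter was 1.51, and without the first it was 2.69. Neither passed the threshold. Calls were rare there for all features, 0.694% of the 720 tested in wt cells and 0.972% in 3′RR-deficient cells, and whether miR-34a-5p was called depended on the tool and on settings of edgeR. DESeq2 gave an adjusted p of 0.00184 in wt and 0.00874 in 3′RR-deficient cells. Within edgeR a replicate block within each condition gave 0.000221 and 0.00104, and leaving out both second NS libraries gave 0.0295 and 0.0498. Over all alternatives the adjusted p ran from 0.000221 to 0.357 in wt cells and from 0.00104 to 0.634 in 3′RR-deficient cells.

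The deletions were then set against wt cells. In NS cells the 3′RR-deficient level of miR-34a-5p was above wt by 0.65 on the log2 scale (95% interval −0.76 to 2.05; edgeR adjusted p = 1). In LPS cells the difference was 0.27 (−1.12 to 1.66; edgeR adjusted p = 1), and there the wt libraries lay between the 3′RR-deficient ones. Without the second 3′RR-deficient LPS library this difference was −0.31. These comparisons called 0 of 720 features each with edgeR, with 9 in NS and 15 in LPS at an unadjusted p under 0.05, and DESeq2 called 1 and 2. Over both conditions the difference was 0.42 (−0.50 to 1.34; edgeR adjusted p = 1), in a comparison that called 0.101% of the 988 features. It became 0.098 without the second 3′RR-deficient LPS library and 0.64 without the first. The intervals reach from lower levels to several-fold higher ones, so these libraries do not show that the genotypes are alike.

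The size of the LPS response was compared between the genotypes as well. The log2 response in 3′RR-deficient cells minus that in wt cells was −0.37 for miR-34a-5p (95% interval −2.34 to 1.60; edgeR adjusted p = 1.00). That comparison called 0 of 720 features with edgeR, with 5 at an unadjusted p under 0.05, and 0 with DESeq2. The sign turned to 0.15 without the first 3′RR-deficient LPS library.

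Eµ-deficient cells had 1 library per condition, so they could be tested only over both. The NS library stood 1.75-fold above the wt mean and the LPS library at 0.944 of it. Without TMM the NS ratio was 1.91 and the LPS ratio 1.10 for microRNA counts, and 1.61 and 0.795 for all features, so the direction in LPS turned with the scaling. Their joint difference from wt was 0.25 on the log2 scale (95% interval −0.86 to 1.37; edgeR adjusted p = 0.888), in a comparison that called 1.62% of 988 features, 1.42% higher and 0.202% lower. It became −0.17 without the NS library. Against the mean of the 3′RR-deficient libraries, the Eµ-deficient level was 1.17-fold in NS and 0.801-fold in LPS, and the LPS ratio became 1.06 for microRNA counts without TMM. The order of the NS groups was wt, 3′RR-deficient and Eµ-deficient from low to high, and that of the LPS groups Eµ-deficient, wt and 3′RR-deficient. Neither order held in every scaling: as CPM of microRNA counts without TMM the Eµ-deficient LPS library was the highest of the LPS groups, and as CPM of all features the 3′RR-deficient and Eµ-deficient NS levels were 40.9 and 40.7. The wt and 3′RR-deficient NS levels did not overlap after TMM scaling or as CPM of all features (24.3 to 26.4 and 28.1 to 53.8). They overlapped as CPM of microRNA counts without TMM (29.6 to 41.3 and 34.7 to 79.7), and the difference was not called. The share of all features without overlap between these groups is not given. In all 3 scalings the Eµ-deficient NS level lay inside the range of the 3′RR-deficient ones, and the Eµ-deficient and wt LPS levels both lay inside it as well.

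**Figure D4:**
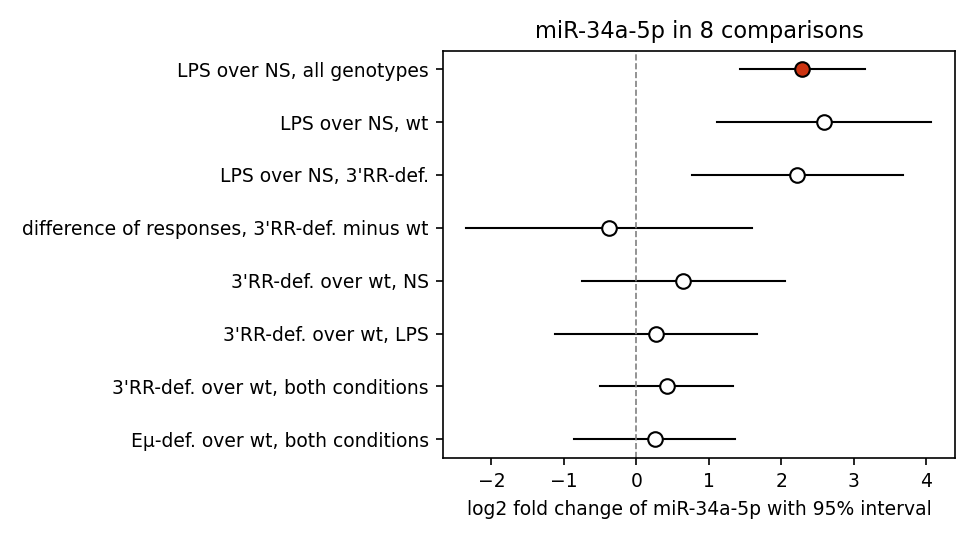
Log2 fold change of miR-34a-5p (points) with its 95% interval (lines) in the 8 comparisons fitted with edgeR. The filled point passed an adjusted p of 0.05 and open points did not. LPS over NS in all genotypes is at 2.29, and each of the 5 comparisons of genotypes has an interval that spans 0.

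Reads from the other side of the miR-34a precursor were seen mainly with LPS. The 3p arm is the strand that is mostly discarded when the hairpin is cut. The Mir34a hairpin (chr4:150068454-150068555, plus strand) is shown with the 5p arm and then the 3p arm in capitals, to place both products on 1 precursor.
Mir34a hairpin: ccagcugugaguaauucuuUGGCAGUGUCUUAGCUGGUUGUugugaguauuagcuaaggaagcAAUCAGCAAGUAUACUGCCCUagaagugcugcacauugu
The miR-34a-3p arm had 3 counts in the first wt NS library and 0 in the other 4 NS libraries. With LPS it had 8 and 24 counts in wt cells, 13 and 48 in 3′RR-deficient cells and 26 in Eµ-deficient cells. The 5 LPS libraries were above the floor and the 5 NS libraries were not. With the NS level set at the floor of 3 counts per library, the LPS level was at least 3.51-fold higher in the wt groups. The same bound was at least 6.14-fold higher without the 3′RR and at least 6.78-fold higher without Eµ. The arm passed the filter on low counts only through LPS libraries, so no test of it is given.

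The hairpin transcript is listed as a feature of its own (ENSMUST00000083559). In NS it had 5 and 0 counts in wt cells, 1 and 0 in 3′RR-deficient cells and 0 in Eµ-deficient cells. With LPS it had 0 and 41 counts in wt cells, 46 and 93 in 3′RR-deficient cells and 180 in Eµ-deficient cells. One wt LPS library thus had no hairpin read, and the groups overlapped in wt cells. As it passed the filter only through LPS libraries, no test of it is given. Set against the floor, its LPS level was at least 15.3-fold higher in cells without the 3′RR and at least 46.9-fold higher in cells without Eµ. Whether reads of the mature arms could also be counted for the hairpin is not given in the sources used here.

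The 2 arms were compared as shares. The 3p arm made up 3 of 1548 reads of both arms in NS (0.194%, 95% Wilson interval 0.0659 to 0.568) and 1.47% in LPS (1.23 to 1.76). The intervals cover counting error only. In single libraries the share was 0.813% in the first wt NS library and 0.857% to 1.91% in the LPS libraries. The other 4 NS libraries had 0 reads of this arm, which allows shares of up to 0.545% to 3.26% by a limit of 3 counts and of up to 0.694% to 4.01% by the Wilson interval. In 3 of these 4 the Wilson limit lay above the lowest LPS share.

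The miR-34b/c pair was close to silent at this depth. miR-34b-5p had 1 count in all 10 libraries, in the Eµ-deficient NS library. Its partner arm miR-34b-3p had 28 counts (2.54 CPM) in the Eµ-deficient LPS library, 1 count in the Eµ-deficient NS library and 0 in the 8 wt and 3′RR-deficient libraries. All 29 counts of this arm were thus in Eµ-deficient cells, which have no replicate. The feature passed the filter on low counts only through the Eµ-deficient LPS library, so no test of it is given.

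mmu-miR-34c-5p, which belongs to the same family, had 30 counts in all. It was above the floor with 6 counts in the second wt LPS library, 8 in the second 3′RR-deficient LPS library and 12 in the Eµ-deficient LPS library. In NS it had 1 count in the first 3′RR-deficient library, 3 in the Eµ-deficient library and 0 in the others. All libraries above the floor were LPS libraries, but 2 of 5 LPS libraries had 0 counts, so the conditions overlapped. It passed the filter only through LPS libraries, so no test of it is given. miR-34c-3p had 2 counts in the first wt NS library and 2 in the Eµ-deficient LPS library.

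mmu-miR-449a-5p showed no order by condition. It had 3 and 0 counts in wt NS, 10 and 0 in 3′RR-deficient NS and 14 in Eµ-deficient NS libraries. With LPS it had 0 and 9 counts in wt, 3 and 8 in 3′RR-deficient and 0 in Eµ-deficient libraries. The totals were 27 counts in NS and 20 in LPS, and the highest level was 1.62 CPM, in the Eµ-deficient NS library. It passed the filter on low counts only through that library, so no test of it is given. Of the neighbouring miR-449 features, miR-449a-3p had 7 counts, all in the second wt LPS library, and miR-449c-5p had 1.

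Seen as a seed family, the signal was that of miR-34a. Summed over the 4 microRNAs with the seed GGCAGUG, the libraries held 9551 counts, and miR-34a-5p was 99.5% of them. In single libraries its share ran from 97.1% (95% Wilson interval 94.7 to 98.4), in the first 3′RR-deficient NS library, to 100%. The lowest shares were in the first 3′RR-deficient and the Eµ-deficient NS libraries, which had the most miR-449a-5p. miR-34c-5p (30 counts), whose sequence was not analysed here, was left out of this sum for that reason and not by its seed.

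Other microRNAs linked to p53 gave the setting. The first list held 11 that p53 is known to induce or to help process: miR-192-5p, miR-194-5p, miR-215-5p, miR-143-3p, miR-145a-5p, miR-107-3p, miR-200c-3p, miR-141-3p, miR-22-3p, miR-15a-5p and miR-16-5p. All 11 were tested. With LPS 0 rose, 3 fell and 8 were not called, with a median log2 fold change of −0.25 against 0.10 over all features. By comparison 6.98% of the 988 features were called lower and 11.8% higher. Of the 11 fold changes 3 were positive and none of these was called: miR-22-3p had a log2 fold change of 0.74 (edgeR adjusted p = 0.255), miR-215-5p one of 0.66 and miR-141-3p one of 0.03.

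miR-143-3p and miR-145a-5p come from 1 precursor transcript that is abundant in smooth muscle and stromal cells. miR-143-3p was at 848 and 162 CPM in wt NS, 145 and 262 CPM in 3′RR-deficient NS, 60.4 and 14.6 CPM in wt LPS and 30.9 and 22.1 CPM in 3′RR-deficient LPS libraries. In Eµ-deficient cells it was at 489.7 CPM in NS and 836 CPM in LPS. It was thus lower with LPS in wt and 3′RR-deficient cells, without overlap, and higher in the Eµ-deficient pair. Over the 3 genotypes it fell by 2.62 on the log2 scale (edgeR adjusted p = 0.0250), and miR-145a-5p was called lower (edgeR adjusted p = 0.0113). With 1 library left out the log2 fold change of miR-143-3p ran from −3.33 (Eµ-deficient NS) to −1.90 (first wt NS library). The call of miR-143-3p was lost in 5 of 20 alternatives, without the first 3′RR-deficient NS library and without any 1 of the 4 wt and 3′RR-deficient LPS libraries (edgeR adjusted p from 0.0510 to 0.0875). miR-145a-5p had 26 to 248 counts in the NS libraries, 0 to 8 in the wt and 3′RR-deficient LPS libraries and 231 in the Eµ-deficient LPS library, and no fold is given because both 3′RR-deficient LPS libraries had 0.

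miR-200c-3p, known from epithelia and as an antagonist of the transcription factor Zeb1, fell from 729 to 1282 CPM in NS to 339 to 515 CPM in LPS. Those ranges did not overlap, as in 5.77% of all features tested. The log2 fold change was −1.02 (edgeR adjusted p = 0.0481), and the call was lost in 10 of 20 alternatives, among them the removal of any 1 library but the second wt and second 3′RR-deficient NS ones. miR-16-5p, which with miR-15a-5p restrains cell-cycle and survival messengers, had a log2 fold change of −0.10, and miR-15a-5p one of −0.55. miR-16-5p was at 5846 and 6951 CPM in the second wt and 3′RR-deficient NS libraries. In the other NS libraries it was at 26771 to 34438 CPM. The same split held for miR-192-5p (49.7 and 75.9 against 295 to 401 CPM) and miR-194-5p (108 and 128 against 410 to 698 CPM). It also held for miR-22-3p, miR-107-3p, miR-141-3p and miR-215-5p. The split ran the other way for miR-15a-5p and was absent for miR-143-3p, miR-145a-5p and miR-200c-3p. The LPS levels of miR-16-5p (14998 to 23585 CPM) and miR-192-5p (138 to 202 CPM) lay between these NS sets. Their direction of change thus depends on the NS library taken.

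The second list held 4 microRNAs known to bind the p53 messenger itself: miR-125b-5p, miR-25-3p, miR-30d-5p and miR-504-5p. With LPS 0 rose, 1 fell and 3 were not called, where 11.8% of all 988 features were called higher and 6.98% lower. The member that fell was miR-125b-5p, by 2.82 on the log2 scale (edgeR adjusted p = 0.00192). It was at 92.8 and 132 CPM in wt NS, 54.0 and 137 CPM in 3′RR-deficient NS and 279 CPM in Eµ-deficient NS libraries. With LPS it was at 7.63 and 17.4 CPM in wt, 10.8 and 5.01 CPM in 3′RR-deficient and 127 CPM in Eµ-deficient cells. The conditions overlapped only through the Eµ-deficient LPS library. No member of either list was called with edgeR in the other 7 comparisons, which called 0% to 1.62% of all features.

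**Figure D5:**
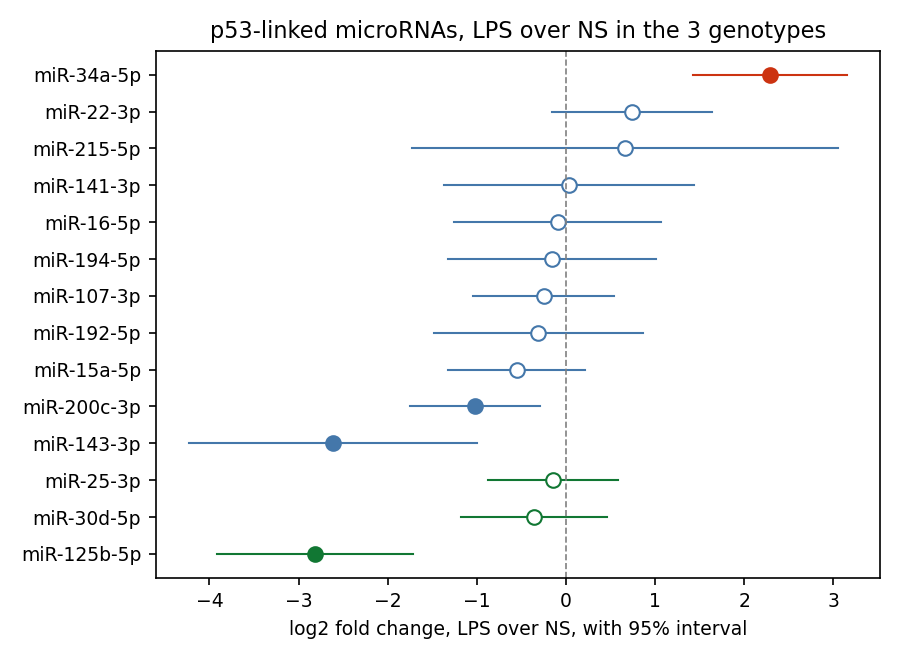
Log2 fold change with LPS over the 3 genotypes (points) with its 95% interval (lines) for miR-34a-5p (red), the microRNAs that p53 induces or helps process (blue) and those that bind the p53 messenger (green). Filled points passed an edgeR adjusted p of 0.05. miR-145a-5p and miR-504-5p, each with a group at or below 3 counts a library, are not drawn. miR-34a-5p is the filled point right of 0, and the 3 other filled points, from miR-200c-3p at −1.02 to miR-125b-5p at −2.82, are left of it.

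Markers of other cell types moved with the LPS comparison too, in which 6.98% of all 988 features were called lower. Of 2 myeloid features (both arms of miR-223) 2 fell, and their summed level was 526 to 5629 CPM in NS and 76.7 to 530.4 CPM in LPS. Of 4 erythroid features 1 fell (miR-486a-5p), with sums of 2778 to 10393 CPM in NS and 156 to 4223 CPM in LPS. Of 6 endothelial and stromal features 3 fell, with sums of 223 to 1047 CPM in NS and 74.5 to 1006 CPM in LPS. In the myeloid, erythroid and stromal lists alike the highest LPS sum was that of Eµ-deficient cells. Of 7 epithelial features, the setting in which miR-34b/c and miR-449 are abundant, 2 fell, with sums of 1222 to 2775 CPM in NS and 883 to 1129 CPM in LPS. Among the features that fell, miR-143-3p, miR-145a-5p and miR-200c-3p are also in the first p53-linked list. No feature of these marker lists was at 0 in all libraries of a condition. The part of these cell types in the values above was not tested.

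MicroRNAs known to be abundant in B-cells were high as a sum in every library, though none of them is made by B-cells alone. Single features varied between NS libraries, such as miR-142a-3p (260 to 9100 CPM) and miR-142a-5p (6872 to 168504 CPM). The 5 features (miR-150-5p, both arms of miR-142a, miR-155-5p and miR-181a-5p) summed to 100397 to 242695 CPM in NS and 84736 to 159850 CPM in LPS. Of these, miR-155-5p, which activated B-cells make from the Bic transcript, rose by a log2 fold change of 2.95, and miR-150-5p and miR-181a-5p fell by 2.21 and 2.07 (edgeR adjusted p = 0.000413, 0.00153 and 0.00311). In Eµ-deficient against wt cells, the 1 feature of all these lists that was called was miR-199a-3p, a stromal microRNA, with a log2 fold change of 3.70 (edgeR adjusted p = 0.0318). In that comparison 4 of 4 erythroid, 2 of 2 myeloid and 5 of 6 endothelial and stromal features had positive fold changes. So did 3 of 7 epithelial and 1 of 5 B-cell features, and 452 of all 988 features tested.

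Finally, the mature microRNAs whose levels ran most like miR-34a-5p were listed. Over the 10 libraries and 800 candidates, the highest Pearson correlations of log2 CPM were with miR-21a-3p (0.952), miR-466o-3p (0.938), miR-296-3p (0.936), miR-135b-5p (0.936) and miR-155-3p (0.927). All 5 were themselves called higher with LPS, for example miR-155-3p, at 4.60 to 10.4 CPM in NS and 211 to 531 CPM in LPS. The libraries share the step between NS and LPS, so these values describe that step first. For the low members the nearest were miR-369-5p (0.985 with miR-34b-3p, which has nearly all its counts in the Eµ-deficient LPS library), miR-221-5p (0.925 with miR-34c-5p) and miR-6899-3p (0.918 with miR-449a-5p). Those values rest on few counts, in the same libraries through which these members passed the filter. They describe those libraries only, and miR-369-5p itself did not exceed 2.99 CPM.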

How the data were processed

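Small RNA libraries were made with the NextFlex kit from total RNA, size-selected and sequenced by the submitters. The authors deposited 1 table of raw read counts per feature. The submitters' processing notes name cutadapt 1.2.1, Bowtie2 and mm10. The counting program and the treatment of reads with several matches are not given in the sources used here. The study's methods describe no small RNA assay, and describe NS cells for long RNA as taken before culture, whereas the labels say that all cells here were cultured for 2 days. The labels of the samples give LPS as 5 µg/ml, as used here, and a protocol text writes mg. The number of unmapped sample columns was 0.

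The microRNA class (2015 features) was fitted with edgeR 4.0.16 in R 4.3.3: TMM scaling, filterByExpr by group, a quasi-likelihood test (two-sided), Benjamini-Hochberg adjustment over all features tested and a threshold of 0.05. An additive fit of genotype and stimulation used all 10 libraries (988 features), and a fit of group means used the 8 wt and 3′RR-deficient libraries (720 features). The scripts were tested on simulated data. The biological coefficient of variation was 79.0% and 72.4%. Fitted fold changes are not given where a group was at the floor of 3 counts per library. Fits with DESeq2 1.42.0, other scalings and filters, replicate blocks and single libraries left out were alternatives. Replicates of a group differed by far more than sampling noise. Same-numbered deviations correlated at 0.654 between the NS groups but between −0.281 and 0.112 for the other pairs of groups, so the numbers were not taken to pair the libraries.

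Named were the 6 members, other features of their loci, both p53-linked lists, the marker lists and the 5 mature microRNAs most correlated with each member that passed the filter (log2 CPM, prior count 2). The members and lists were chosen with earlier results of these data known. Sequences came from RefSeq tables (GRCm38.p6), which held 5 of the 6 members, and gene positions from the GENCODE annotation of the same build.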

Additional observations from a re-analysis of the deposited data

Results flagged for a closer look

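The LPS response of miR-143-3p pointed one way in wt and 3′RR-deficient cells and the other way in Eµ-deficient cells. The log2 ratio of the mean LPS level to the mean NS level was −3.75 in wt cells and −2.94 in 3′RR-deficient cells (n = 2 libraries per condition each), and both LPS libraries were below both NS libraries in each of these genotypes. In the single Eµ-deficient pair it was 0.7712. The difference between the genotypes was not tested, since Eµ-deficient cells have no replicate.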

How the results depend on the processing

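The LPS response of miR-34a-5p over the 3 genotypes kept its direction and its call in 20 of 20 alternatives, at 2.04 to 2.46 on the log2 scale (edgeR or DESeq2 adjusted p from 1.53e-13 to 0.00961), and miR-34a-5p was the 1 member called in each. Within genotypes it was called in 4 of 17 alternatives in wt cells (adjusted p from 0.000221 to 0.357) and in 4 of 18 in 3′RR-deficient cells (0.00104 to 0.634). The member count went from 0 to 1 in both with DESeq2, with the block within conditions and without both second NS libraries, and in wt cells also without the first 3′RR-deficient NS library (leaving out 1 library gave 0 to 1). Without 1 library the difference of miR-34a-5p ran from −0.17 (Eµ-deficient NS left out) to 0.87 for Eµ-deficient against wt cells, from −0.31 (second 3′RR-deficient LPS library left out) to 0.77 for 3′RR-deficient against wt LPS cells, and from −0.91 to 0.15 (first 3′RR-deficient LPS library left out) for the difference of responses. The causes were not tested. Scaling by total counts shifted the median feature by −0.11 in the LPS response and by 0.37 in Eµ-deficient against wt cells.

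Counts of called features moved more. DESeq2 called 281 features for LPS over the genotypes (186 with edgeR), 103 for LPS in wt (5), 97 for LPS in 3′RR-deficient cells (7), 57 for Eµ-deficient (16) and 3 for 3′RR-deficient against wt cells (1), and 1 in NS and 2 in LPS cells (0 each). Without a filter the counts were 47 for Eµ-deficient cells, 50 for LPS in wt and 31 for LPS in 3′RR-deficient cells, the last being 15 with a filter of 10 CPM in 2 libraries. Scaling by total counts gave 28 for Eµ-deficient cells and 10 for LPS in wt, and mature microRNAs alone gave 3 for LPS in wt. With 1 library left out the ranges were 107 to 194 for LPS over the genotypes (107 without the second wt LPS and 117 without the second 3′RR-deficient LPS library), 1 to 2 for 3′RR-deficient, 1 to 33 for Eµ-deficient (1 without the Eµ-deficient LPS library, 2 without either wt LPS library, 33 without the first wt NS library), 0 to 71 for LPS in wt and 0 to 62 for LPS in 3′RR-deficient cells (71 and 62 without the first 3′RR-deficient NS library). Chosen after seeing the data, leaving out both second NS libraries gave 71 for Eµ-deficient, 2 for 3′RR-deficient, 79 and 50 for LPS in wt and 3′RR-deficient cells, and 2 for 3′RR-deficient against wt LPS cells. Leaving out a library leaves single samples in a group, which are assumed to vary like the rest.

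With the replicate block the counts were 27 for LPS in wt and 11 for LPS in 3′RR-deficient cells, and miR-34a-5p had 2.24 for LPS over the genotypes (adjusted p = 0.00115). With a replicate block within each condition they were 366, 182 and 183 for the 3 LPS responses, 9 and 105 for the 2 deletions over both conditions, and 1 and 2 for 3′RR-deficient against wt NS and LPS cells. With crossed numbers, an added alternative, LPS in 3′RR-deficient cells had 83 calls, 1 of them a member.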
